A study of Mus musculus with 2 samples.

Results

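Basal cells with few transcripts of the cell cycle were studied in organoids grown from mouse esophageal epithelium. The esophageal sample held 919 cell barcodes, and 455 of them passed a first filter of at most 20% mitochondrial transcripts, at least 10000 transcripts counted by unique molecular identifier (UMI), and at least 75% of the UMIs of 6 keratins in the squamous keratins Krt5, Krt14, Krt6a and Krt13, the others being the simple keratins Krt8 and Krt18. Of these 455 squamous cells, 227 lay below the median of a cycle sum, the UMIs of Mki67, Top2a, Cdk1, Birc5, Ube2c, Pcna, Mcm3 and Mcm5 per 10000 UMIs. The deposited tags still hold barcodes that the study later discarded as wrongly tagged or mixed, and its list of them was not used here. The 80 cells with the highest marker sum among the 227 are the basal low-cycle cells. The marker sum was the UMIs of Krt15, Col17a1, Trp63 and Dlk2 per 10000.

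The study compared epithelium on the 2 sides of the border between esophagus and stomach. Its methods name wild-type C57BL/6 female mice. Other organoids of the study came from tamoxifen-induced lineage-tracing mice, or were grown with a WNT secretion inhibitor. No treatment, strain or genotype was stated for the sequenced organoids themselves in the sources used here. Cells from several mice were combined into 1 sample per tissue, so the mice cannot be told apart and no difference below has a replicate check, a p-value or a standard error. The esophageal medium held EGF, FGF10, the BMP antagonist noggin, forskolin and inhibitors of the TGF-beta receptor and of ROCK. Stomach organoids grew in another medium with WNT3A and R-spondin1, and whether the sequenced esophageal organoids had these was not stated in the sources used here. Stomach organoid cells ran in the same pool under another sample tag, and 85 of them that were columnar by the keratin share served as a comparison. Their UMIs of a gene can be background or transcripts of their own.

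The basal layer of a squamous epithelium rests on the basement membrane, to which hemidesmosomes anchor it through the integrin of the Itga6 and Itgb4 chains. It holds the dividing cells, and cells that leave it stop dividing, switch keratins and move up through the suprabasal to the superficial layers. The transcription factor p63, encoded by Trp63, is required for such epithelia to form, and Col17a1 is a collagen that spans the membrane at the hemidesmosome. Basal cells of the esophagus are a mix of dividing cells and of cells that rest or prepare to leave.

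The basal low-cycle cells held 2803606 UMIs, with a median of 33221 per cell (12028 to 113423). The 375 other squamous cells had a median of 44009. Of these, the 147 other low-cycle squamous cells had 36374, and the 80 basal cycling cells, taken in the same way by the marker sum from the 228 cells at or above the cycle median, had 48719. Median mitochondrial shares were 4.40%, 3.76%, 3.55% and 4.45% in this order. With every cell thinned to 10000 UMIs, basal low-cycle cells had a median of 2542.5 genes, other low-cycle cells 2454 and basal cycling cells 2722. UMIs of 97 ribosomal protein genes made a median of 34.7% of each basal low-cycle cell, against 30.7% in other low-cycle and 31.7% in basal cycling cells, and the part of this share in the results was not tested. With cells thinned to equal depth and chosen anew, which kept 72 of the 80, the summed hemidesmosome genes were 1.55-fold, the basement membrane genes 2.26-fold, Jag2 3.07-fold and Ccnd2 2.30-fold higher than in other low-cycle cells. The thinned values were not repeated without the single cell, described below, that stood apart in the first 2 of these.

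**Figure D1:**
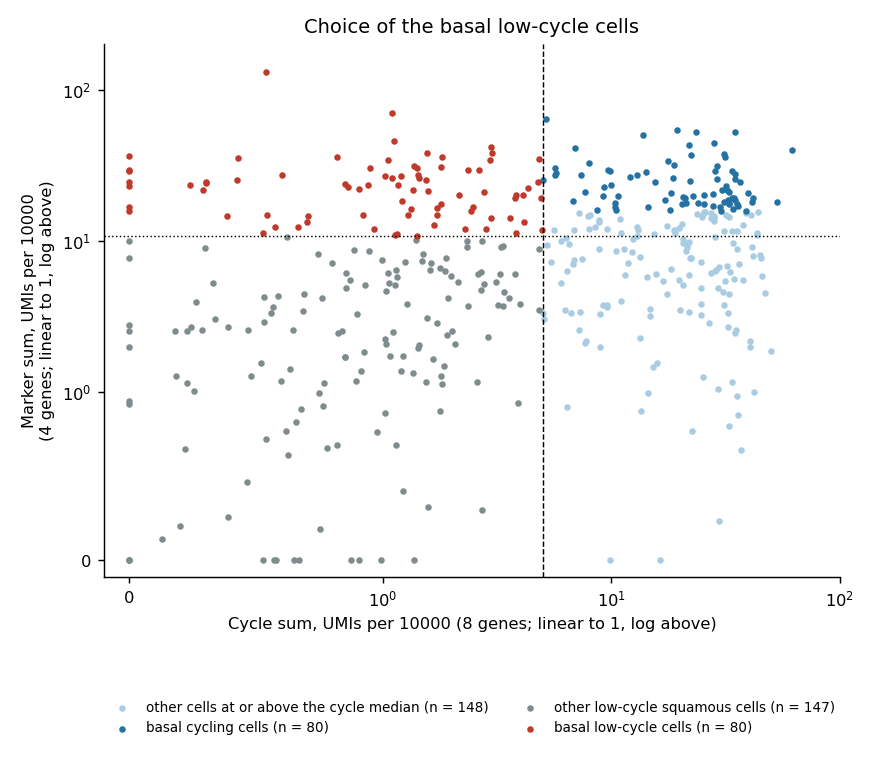
Marker sum (y axis) against cycle sum (x axis), each in UMIs per 10000, for the 455 squamous cells, one point per cell. The dashed line is the cycle median and the dotted line the lowest marker sum of the 80 basal low-cycle cells (red). Points are continuous across both lines.

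Neither limit fell in a gap. The lowest marker sums inside were 10.7 and 10.9 per 10000, and the highest outside were 10.6 and 10.1. Within 20% of the limit lay 12 cells inside and 12 outside. The cycle sum of the chosen cells ran from 0, in 7 cells, to 4.94 per 10000, and 7 cells lay within 20% of the median of 5.00. Above the same marker limit lay 123 cells at or over the cycle median, against 80 below it. The group is therefore a range of 2 scores, and whether it is also a separate type was not tested.

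The values that chose the cells are a description. The marker sum had a median of 22.1 per 10000 (10.7 to 131), and Krt15, a keratin of basal cells, gave 77.2% of the marker UMIs. Col17a1 gave 13.7%, Trp63 7.45% and the Notch modulator Dlk2 1.72%. All 4 markers were detected in 36 cells, 3 in 39 cells and 2 in 5 cells. Summed over cells and scaled to counts per 1000000 UMIs (CPM), Krt15 stood at 1813 CPM in basal low-cycle, 119 in other low-cycle, 2049 in basal cycling and 10.2 in columnar stomach cells.

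Each marker was also read in cells chosen by the other 3 markers, which does not use its own counts. Krt15 was then 3.08-fold higher (2.93 to 3.25) in the 80 cells chosen than in the other 147, Col17a1 1.87-fold (1.69 to 2.07), Trp63 2.05-fold (1.80 to 2.33) and Dlk2 6.72-fold (4.50 to 10.3). Intervals here and below are exact 95% intervals that cover counting error only. All 4 markers thus varied in the same direction among low-cycle cells. Leaving out Krt15 changed the choice most, and 56 of the 80 cells were still taken.

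The label was checked against markers of other cells. No UMI of the fibroblast, smooth muscle, immune, erythroid or neuroendocrine markers was found in the basal low-cycle cells, which allows up to 1.32 CPM per list (exact 95% upper bound). Endothelial markers had 1 UMI, Merkel cell markers 3, and neural and glial markers 11. The 5 columnar stomach genes together stood at 19.6 CPM, against 2008 CPM in columnar stomach cells. Suprabasal transcripts were present as well, with Krt13 at 2739 CPM in the basal low-cycle and 7625 CPM in the other low-cycle cells. Basal cycling cells held less of it, at 1380 CPM. Krt6a stood at 1168 CPM in basal low-cycle, 4370 in other low-cycle and 687 in basal cycling cells. The sample tag of the esophagus had a median of 254 counts in the basal low-cycle cells and that of the stomach 40, and no cell had more of the latter. The squamous keratins were part of the rule and do not bear on the basal label, and Krt14, a basal keratin, was lower than in other low-cycle cells (3265 against 5179 CPM).

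A single cell stood apart from the other 79. It had 49885 UMIs, 0 of Krt15 and 134 of Col17a1, and its hemidesmosome genes summed to 70.0 per 10000, where the next highest cell had 24.1. It also held 74 UMIs of the chemokine Cxcl2, 24 of Lif and 17 of Inhba, a subunit of activin. The transcript Gm42418 made up 12.5% of its UMIs, against 0.836% over all 80 cells. The main results on hemidesmosome and basement membrane genes are therefore given with and without it.

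The first comparison set the basal low-cycle cells against the other low-cycle squamous cells, cells of the same low cycle sum that hold less of the basal markers. A gene was counted when it reached 20 CPM over both sets, and as higher or lower past a 1.5-fold difference. Of 4614 genes, 288 (6.24%) were higher and 457 (9.9%) lower in basal low-cycle cells. Scaling by TMM, which takes 0.10 from every log2 fold, gave 182 higher and 582 lower. The cells were chosen by genes that vary with these, so the counts describe the cut and are no test. Beside each list below stands the median log2 fold of all genes, 0.03.

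Genes that attach cells to the basement membrane were higher in the basal low-cycle cells. Of the 5 hemidesmosome genes 3 were higher and none lower, with a median log2 fold of 0.72. Dst, a plakin that links keratin filaments to the hemidesmosome, stood at 246 CPM against 114 CPM (2.16-fold, 1.94 to 2.41). Per cell, Dst ranged from 0 to 22.1 per 10000 with a median of 1.44, against a median of 0.685 in other low-cycle cells, and the ranges overlapped. Itga6 was 1.78-fold (1.60 to 1.99) and Itgb4 1.65-fold higher (1.49 to 1.83), while Plec, the plakin partner of Itgb4, was 1.46-fold higher and stayed within the threshold. Itgb1, the chain that most other integrins of the epidermis share, was 1.77-fold higher (1.59 to 1.98).

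Without the cell that stood apart, Dst was 1.85-fold, Itga6 1.53-fold, Itgb4 1.45-fold and Itgb1 1.60-fold higher, so that 2 of 5 hemidesmosome genes were past the threshold and the median was 0.54. The genes of the basement membrane itself were the most affected. All 4 measured ones of the 18 listed were higher, with a median of 1.03, and without that cell 2 were, with a median of 0.57. Lamb3, the beta chain of the laminin that hemidesmosomes bind, stood at 117 against 49.0 CPM (2.38-fold, 2.03 to 2.80) and was 1.96-fold higher without that cell. Lama3, the alpha chain of that laminin, went from 1.61-fold to 0.85-fold without it. Agrn, the basement membrane proteoglycan agrin, was 2.56-fold higher (1.96 to 3.34) at a low level of 46.0 against 18 CPM. It stayed past the threshold without that cell, as did Bcam, Bcl11b and Cav1 below.

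**Figure D2:**
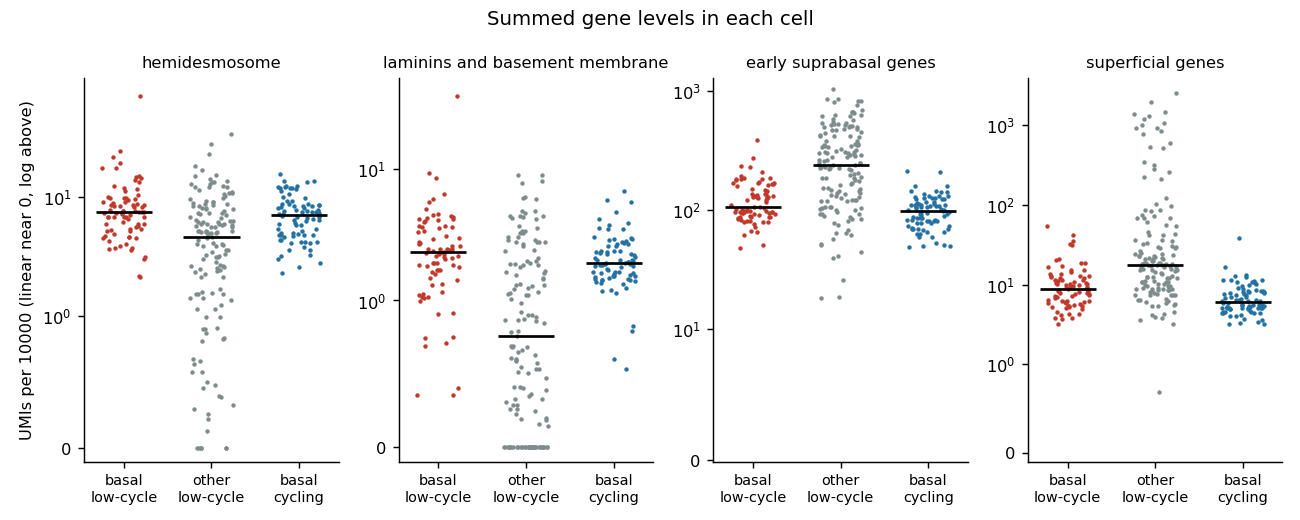
Summed UMIs per 10000 in each cell for 4 gene lists, with 80 basal low-cycle (red), 147 other low-cycle (gray) and 80 basal cycling cells (blue). Bars are medians and the y axis is linear near 0 and log above. The cell at 70.0 per 10000 in the hemidesmosome panel is the one left out above, and the ranges of all 3 sets overlap in every panel.

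Of 10 measured other basal genes, 3 were higher and 1 lower, with a median of 0.10, close to that of all genes. Bcam, a laminin receptor, stood at 78.5 against 29.1 CPM (2.70-fold, 2.20 to 3.31), Bcl11b, a transcription factor of basal keratinocytes, was 1.94-fold higher and Cav1, the coat protein of caveolae, 1.67-fold. S100a14 was 2.03-fold lower. Among the stem and progenitor genes of epithelia 4 of 13 were measured, with a median of -0.39. Procr, the protein C receptor, was 2.10-fold higher (1.58 to 2.81). Aldh1a3, an enzyme of retinoic acid synthesis, was the 1 lower gene (0.713 against 156 CPM).

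Genes of the layers above were lower in the basal low-cycle cells. Of 16 measured early suprabasal genes 13 were lower and 1, the glutathione transferase Gstm1, higher (1.53-fold), with a median of -1.82. Without the cell that stood apart 2 were higher, with Lgals7 added. Krtdap, a secreted protein of differentiating keratinocytes, stood at 738 against 2857 CPM (3.87-fold lower, 3.70 to 4.05). Sbsn was 4.16-fold lower (3.65 to 4.75) and the fatty acid carrier Fabp5 3.24-fold lower (3.17 to 3.32). Fabp5 was found in every basal low-cycle cell, at a median of 18.9 per 10000, against 71.3 in other low-cycle cells.

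Genes of the superficial and cornified layer were lower still, 17 of 18 measured, with a median of -2.99. Envoplakin Evpl was 3.94-fold lower and periplakin Ppl 2.44-fold lower, both being plakins that underlie the cornified envelope. The sum of the list was 1142 CPM in basal low-cycle cells against 14510 in other low-cycle cells, yet the medians per cell were 8.93 and 17.6 per 10000. A few cells of the comparison set, up to 2512 per 10000, carried most of its sum. Among 18 measured squamous transcription factors 5 were lower and none higher. They were Elf3, at 7.06-fold (5.55 to 9.11), and Ovol1, at 3.93-fold, with Elf5, Hopx and Zfp750, regulators of differentiation. Without the cell that stood apart 6 were lower and 1, Pax9, was higher.

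The 12 genes named for the highest lower bound of the fold were led by Jag2, a ligand of Notch receptors. Its gene lies at chr12:112907819-112929776 on the minus strand of GRCm38. It stood at 82.8 CPM against 19.7 (4.2-fold, 3.35 to 5.30), with a median of 0.718 per 10000 (0 to 4.22) in the basal low-cycle cells and 0 in the others. After thinning, 52.5% of basal low-cycle cells had a UMI of Jag2, against 17.7% of other low-cycle and 16.5% of columnar stomach cells, whose median depth before thinning was 77760. Upk3bl was 3.78-fold higher (3.19 to 4.49), the Rap activator Rapgef5 3.80-fold (3.09 to 4.69), Cdh13, a cadherin held by a lipid anchor, 3.54-fold (2.69 to 4.67) and the carbonyl reductase Cbr2 3.04-fold (2.58 to 3.59). Of these Rapgef5 was nearly absent from stomach cells (4.71% with a UMI after thinning against 51.2%), while Cdh13 was found in 56.5% of them.

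Other genes of this set were Slc6a6, the taurine transporter (82.0 against 26.2 CPM), Pltp, a phospholipid transfer protein (52.4 against 16.4), the polycomb gene Scmh1 (52.8 against 17.5), the DNA end resection gene Rbbp8 (76.0 against 24.0) and the antiviral membrane protein Ifitm3 (296 against 115). Tmem176b was 3.47-fold higher, but with no limit on the keratin share its log2 fold turned to -1.49. Ccn1, a secreted matrix protein, was 3.99-fold higher (2.99 to 5.38), and its share of cells with a UMI after thinning, 23.8%, was under that of stomach cells, 29.4%. That share alone does not set it apart from the stomach cells of these libraries. Whether those cells make Ccn1 or hold it as background was not tested.

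The named genes that were lower were led by Krt16, a keratin of wounded and stressed epithelium, at 89.9 against 1841 CPM (20.5-fold lower, 18.1 to 23.3). Klk10, a kallikrein protease, was 13.8-fold lower and the defensin Defb14 15.8-fold lower, from 1023 UMIs in the comparison set to 31. Sult2b1, the cholesterol sulfotransferase, was 9.31-fold lower (7.74 to 11.3), Dmkn 6.25-fold and Gsto1 5.66-fold, with Mall, Mal2, Adam28, S100a7a, Tubb2a and Elf3 completing the rule. In the wound list 3 of 5 measured genes were lower, Krt16, Krt6b and Sprr1b.

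Promoters of 2 of the higher genes, a basement membrane gene and a matrix gene, are shown with the 6 bases GGAATG, on either strand, in capitals, which TEAD transcription factors bind. They run from 250 bases before the start site and are taken from RefSeq (build GRCm38.p6) 5′ to 3′ on the strand of the gene. Ccn1 is read from chr3:145649936-145650235 on the minus strand and Lamb3 from chr1:193301993-193302292 on the plus strand. Each holds 1 match, at -103 in Ccn1 and -167 in Lamb3 relative to the start site. These 2 genes were picked, and for each the first listed promoter that holds the motif was taken. A match was therefore certain and is no result. The Lamb3 window lies inside the span of the gene, chr1:193207699-193343878.
Ccn1: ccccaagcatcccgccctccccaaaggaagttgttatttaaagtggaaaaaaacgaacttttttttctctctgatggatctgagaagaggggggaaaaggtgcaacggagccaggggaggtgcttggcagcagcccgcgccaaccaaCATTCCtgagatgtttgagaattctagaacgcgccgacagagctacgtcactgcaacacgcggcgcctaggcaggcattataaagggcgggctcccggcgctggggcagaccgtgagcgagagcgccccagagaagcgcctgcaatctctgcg
Lamb3: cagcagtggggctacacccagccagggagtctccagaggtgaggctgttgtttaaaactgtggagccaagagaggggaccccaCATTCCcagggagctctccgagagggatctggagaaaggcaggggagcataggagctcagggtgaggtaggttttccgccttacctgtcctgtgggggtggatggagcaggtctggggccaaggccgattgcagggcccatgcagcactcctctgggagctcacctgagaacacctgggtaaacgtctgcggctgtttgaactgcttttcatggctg
Of the 12 named genes higher than in other low-cycle cells 9 matched the promoter table, and 4 of them (44.4%) held the motif, as did 3 of 8 matched genes that were lower (37.5%), against 16.6% of 27025 genes. A second motif that was searched, the E-box CACCTG on either strand, which Snail and Zeb factors bind, was in 3 of the 9 higher genes (33.3%) and 4 of the 8 lower genes (50%), against 22.6% of all. A match in this window is a description of the letters and shows no binding.

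Inhibitors of the cycle that were measured were within the threshold or lower in the basal low-cycle cells. None of 9 measured CDK inhibitors and antiproliferative genes was higher and 3 were lower, with a median of -0.20. Over all genes 6.24% were higher, so that none of 9 is near that share and is no result about the list. Without the cell that stood apart the median was -0.43. Cdkn1a, which encodes p21, stood at 87.0 against 276 CPM (3.17-fold lower, 2.77 to 3.65). Cdkn2b, which encodes p15, was 2.38-fold lower (1.87 to 3.05), and Ccng2 was the third. Cyclin D2, Ccnd2 (chr6:127125162-127152193, minus strand), was the 1 gene of 5 measured cyclins and partners that was higher, at 589 against 268 CPM (2.19-fold, 2.05 to 2.35). It was detected in every basal low-cycle cell, from 0.357 to 21.1 per 10000 with a median of 4.47, against a median of 1.84, and it remained 2.22-fold higher without the cell that stood apart.

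In signaling lists both directions occurred. Besides Jag2, 2 of 7 measured Notch genes were lower: Nrarp, a target of the pathway (20.7 against 77.8 CPM, 3.76-fold, 2.85 to 5.03), and the receptor Notch3 (2.52-fold, 1.79 to 3.63). Notch1 was within the threshold at 1.40-fold higher. Both measured WNT ligands were higher, Wnt10a at 138 against 58.4 CPM (2.36-fold, 2.04 to 2.74) and Wnt4 at 368 against 218 CPM (1.69-fold, 1.55 to 1.84). The other 23 ligands and inhibitors of that list did not reach 20 CPM, and Ptk7, a co-receptor of the planar polarity branch, was 2.19-fold higher. Among 13 measured growth factor genes Nrg1, the neuregulin ligand, was 2.26-fold (1.95 to 2.60) and Igf1r 1.52-fold higher, while Hbegf was 1.97-fold lower together with Errfi1, Fgfbp1 and Epgn. Of 9 BMP and TGF-beta genes Tgfbi (2.03-fold), Bmpr2 (1.58-fold) and Id3 (1.57-fold) were higher and Id1 was 1.67-fold lower. Without the cell that stood apart Igf1r and Bmpr2 were no longer past the threshold. Id3 turned to a log2 fold of -0.07 in the 40 cells of highest marker sum, and also with no limit on the cycle sum.

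**Figure D3:**
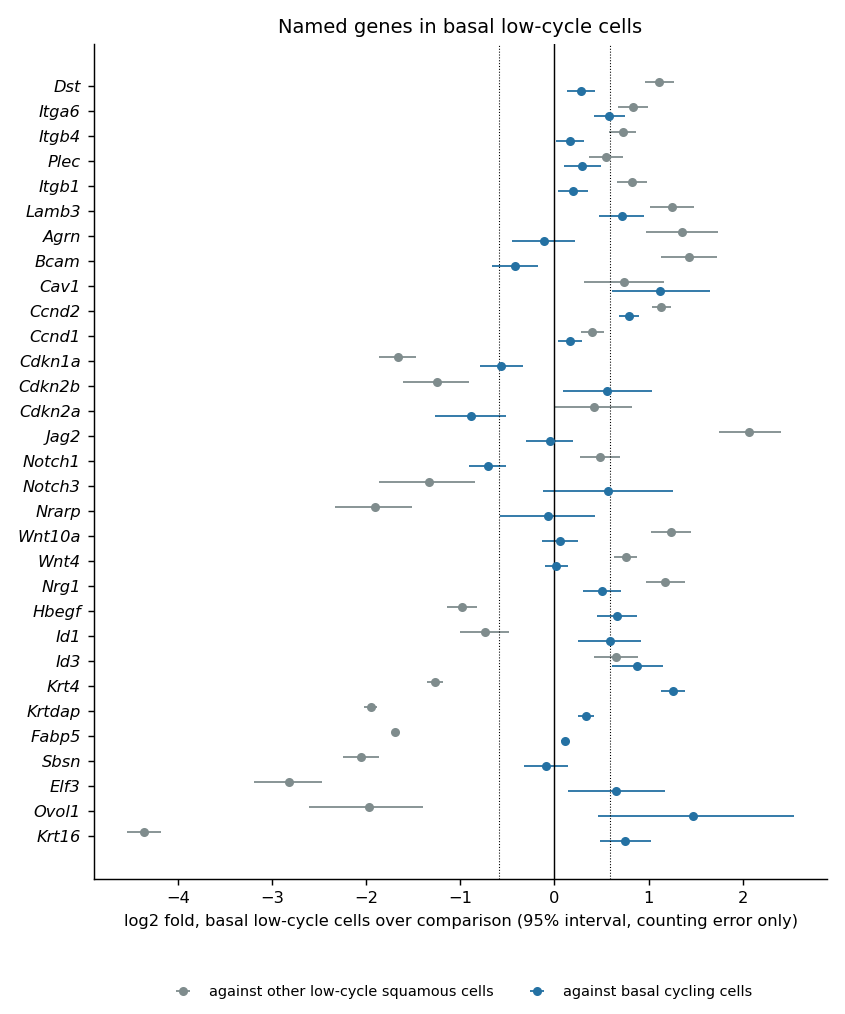
Log2 fold of 31 genes in the 80 basal low-cycle cells over other low-cycle (gray) and basal cycling cells (blue), with 95% intervals for counting error and dotted lines at 1.5-fold. Jag2, Wnt10a, Agrn and Bcam are higher only against the low-cycle cells by that threshold, Ccnd2 against both, and Krt4 and Krt16 are on opposite sides in the 2 comparisons.

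The second comparison set the basal low-cycle cells against the basal cycling cells, which hold a high cycle sum. Median marker sums were similar, at 22.1 and 21.3 per 10000 (15.6 to 63.5 in basal cycling cells). The first quartile of the basal low-cycle cells, 14.8, lay under the lowest basal cycling cell, so the sets were not matched on it. Of 4909 genes, 129 (2.63%) were higher and 537 (10.9%) lower, with a median over all genes of -0.06. The cycle sum fixed much of the lower side. All 23 measured mitosis genes outside the sum were lower, with a median of -4.88, and so were all 18 replication genes, with a median of -2.03. Nusap1, a spindle protein, had 6 UMIs against 554, and Prc1, a protein of the spindle midzone, had 23 against 979. Pimreg and Ska1 had 0 UMIs, so that they were at least 38.1-fold and 34.8-fold lower against the 3 counts that a sum of 0 allows. Replication transcripts were lower by less, with Tipin at 2.50-fold, and Tipin was 2.04-fold higher than in other low-cycle cells, where 1 of 3 measured replication genes was.

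Basal adhesion genes differed little between both basal sets. Of the 5 hemidesmosome genes 1, Cd151, was higher (1.55-fold, and 1.46-fold without the cell that stood apart), with Dst at 1.21-fold, Itga6 at 1.5-fold just under the threshold and Itgb4 at 1.12-fold. Lamb3 was 1.64-fold and Lama3 2.11-fold higher, and without that cell none of 4 measured basement membrane genes was past the threshold. Jag2, Wnt10a and Wnt4 were at 0.97-fold, 1.04-fold and 1.01-fold, with intervals of 0.81 to 1.15, 0.91 to 1.19 and 0.93 to 1.10. Cdh13 (1.04-fold) and Ifitm3 (0.95-fold) were likewise within the threshold here, although all 5 were past it against other low-cycle cells.

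Ccnd2 did differ, at 589 against 340 CPM (1.73-fold, 1.61 to 1.86), with medians of 4.47 and 2.53 per 10000 and ranges that overlapped. Ccnd1 was 1.12-fold higher. Of 9 measured CDK inhibitors none was higher and 4 were lower, against 2.63% and 10.9% of all genes. The list median was -0.56. Without the cell that stood apart 1 was higher, Cdkn2b, and 5 were lower, with Cdkn1a added and a median of -0.77. Cdkn2a, whose locus encodes p16 and ARF, was 1.85-fold lower (1.43 to 2.41) and Cdkn1b, which encodes p27, 1.72-fold lower (1.30 to 2.29), with Cdkn2d and Ccng1.

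Some genes of the suprabasal layers were higher than in the basal cycling cells, and most measured ones were within the threshold. Krt4, the keratin of the esophageal suprabasal layer, stood at 500 against 208 CPM (2.40-fold, 2.19 to 2.62), and its medians were 2.22 (0 to 65.5) and 1.10 per 10000 (highest 11.7). It was 1 of 4 early suprabasal genes that were higher among 13 measured, with Lgals3, Ly6d and Anxa1, and the list median was 0.34. Ly6d was 3.01-fold higher, but 1 cell held 42.5% of its UMIs in the basal low-cycle cells. Krtdap was at 1.26-fold, Fabp5 at 1.08-fold and Sbsn at 0.94-fold. Krt16 was 1.69-fold higher (1.40-fold without the cell that stood apart and 0.97-fold after thinning) and Krt6b 2.56-fold. Of 14 measured squamous transcription factors 3 were higher, among them Elf3 (1.58-fold) and Klf4 (1.55-fold).

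Further genes on the higher side of this comparison were Ndrg1, a gene induced by low oxygen and differentiation (171 against 60.0 CPM, 2.85-fold, 2.43 to 3.36), Ndufa4l2 (849 against 422 CPM, 2.01-fold, 1.89 to 2.15) and the aldolase Aldoc (42.1 against 15.3 CPM), of which the first 2 are known targets of hypoxia-inducible factors. Krt19, a keratin that columnar cells also make, was 2.39-fold higher (2.05 to 2.80), Kctd11 2.88-fold and the small GTPase Rhob 3.30-fold (2.28 to 4.84). The immediate early genes Atf3, at 133 against 55.5 CPM (2.41-fold, 2.02 to 2.86), and Fos, at 1.60-fold, were the 2 higher of 17 measured. Atf3 had a median of 0 per cell, and 33.8% of thinned basal low-cycle cells had a UMI against 32.9% of columnar stomach cells. In the BMP list Id1, Id2 and Id3 were higher, by 1.5-fold, 1.66-fold and 1.84-fold. Among the Notch genes Dll1 was 1.60-fold higher and Notch1 1.64-fold lower (1.43 to 1.88).

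Against all 375 other squamous cells, a mixture of cycling and differentiating cells, 69 of 4903 genes (1.41%) were higher and 479 (9.77%) lower. The higher genes by the rule were Upk3bl (2.30-fold, 2.04 to 2.59), the WNT and BMP antagonist Sostdc1, Atf3, Ccnd2, the noncoding RNA Hotairm1, Rapgef5, Ccn1, the noncoding RNA Zfas1, the translation inhibitor Pdcd4, Lamb3, Tmem132a and Cbr2. Without the cell that stood apart, Lamb3 was under the threshold here, as were all 4 measured basement membrane genes. Sostdc1 stood at 39.9 CPM in basal low-cycle, 17.5 in all other, 5.14 in other low-cycle and 32.2 in basal cycling cells, and 31.2% of thinned basal low-cycle cells had a UMI against 0% of columnar stomach cells. Pdcd4 had 93.1, 51.3, 43.8 and 80.9 CPM in the same order. The 12 lower genes were 11 of division and chromatin, from Pimreg to Plk1, and AA467197, at 17.1 CPM against 288 in all other and 816 in other low-cycle cells.

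Along the marker sum the low-cycle cells were also read in 3 bins of 80, 80 and 67 cells, and the cells at or above the cycle median in bins of 80, 80 and 68. Among low-cycle cells Jag2 stood at 82.8, 34.2 and 4.86 CPM from the highest to the lowest bin, Ccnd2 at 589, 384 and 149 and Wnt10a at 138, 103 and 13.2. Hemidesmosome genes summed to 919, 750 and 309 CPM, the first being 809 without the cell that stood apart, and superficial genes to 1142, 2987 and 26325. Each of these moved in 1 direction over the bins.

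Among cells at or above the cycle median these genes varied less from bin to bin. Jag2 stood at 85.7, 78.3 and 58.5 CPM, Wnt10a at 133, 133 and 83.2, Ccnd2 at 340, 359 and 348, hemidesmosome genes at 729, 719 and 778 and superficial genes at 704, 789 and 1595. Early suprabasal genes summed to 12752, 22377 and 41337 CPM in the low-cycle bins and to 10098, 10097 and 14227 in the others. The marker limits of the bins differ between low-cycle and cycling cells, so bins of the same rank do not hold the same marker sum.

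**Figure D4:**
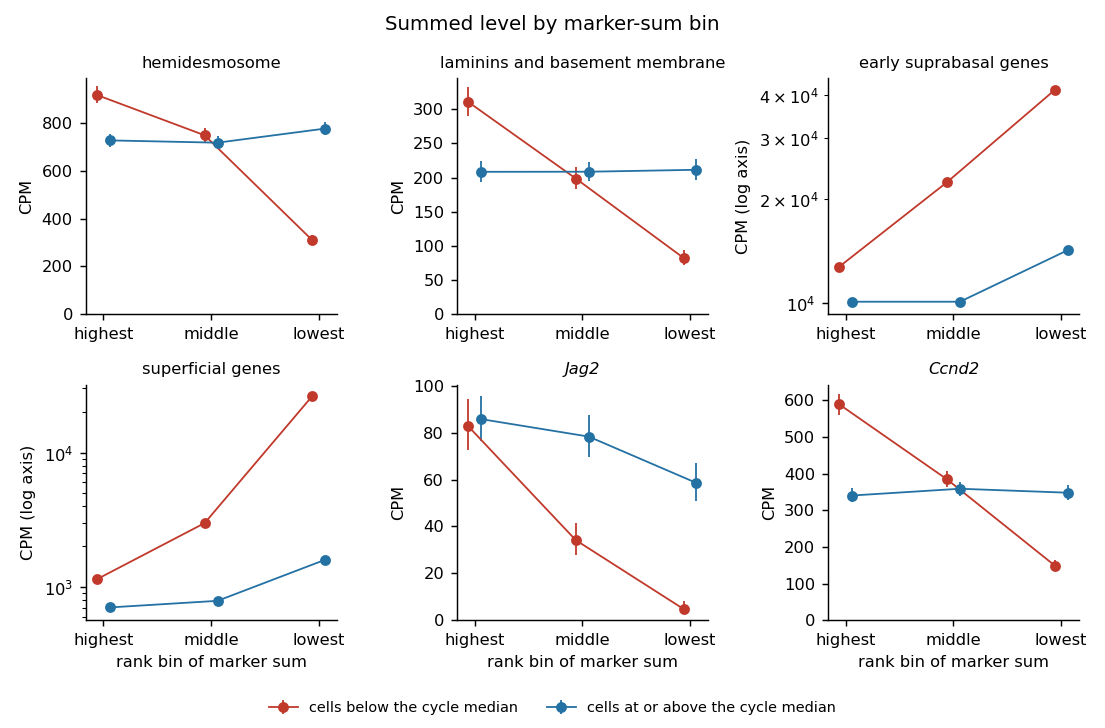
Summed level in CPM of 4 gene lists, Jag2 and Ccnd2 in bins of the marker sum, for cells below (red) and at or above the cycle median (blue), with 95% intervals for counting error and the cell that stood apart included. Early suprabasal and superficial genes are on log axes. Low-cycle cells span 82.8 to 4.86 CPM of Jag2, and cycling cells 85.7 to 58.5.

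Within the 80 basal low-cycle cells the marker sum had rank correlations near 0 with other readouts, as a description over cells of 1 sample that share depth as a denominator. Spearman's rho of the marker sum was -0.01 with early suprabasal genes, 0.01 with hemidesmosome genes and 0.04 with the UMIs of the cell. The markers did not vary as 1 unit, with a rho of -0.20 between Krt15 and Col17a1 and 0.27 between Col17a1 and Trp63. Hemidesmosome genes had a rho of -0.40 with early suprabasal genes. The cycle sum had a rho of 0.55 with replication genes outside it, so that a range of replication transcripts was left within the set, from 0.474 to 17.5 per 10000.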

How the data were processed

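Organoid cells of esophagus and stomach were tagged, pooled and sequenced with a 3′ droplet assay, 1 sample per tissue. The authors deposited UMI counts per gene and cell, made with Cell Ranger 3.1.0 on build mm10, and the sample tag that their demultiplexing gave each cell, and they later discarded wrongly tagged and mixed cells by keratins. Here the keratin share stood in for that step, and no doublet caller was run. Of 1099 barcodes with 32285 genes, 121 esophageal cells were over the mitochondrial limit, 313 under 10000 UMIs and 30 under the keratin share. Counts were summed over cells and scaled to CPM, and folds have exact 95% intervals conditional on both sums, for counting error only. With 1 sample per tissue no count model was fitted, and edgeR 4.0.16 (R 4.3.3) gave TMM factors only. Python 3.11.15, numpy 2.4.6, scipy 1.17.1, pandas 2.3.3 and matplotlib 3.10.9 were used, and the calculations were tested on simulated data. Columns of no sample were not needed, and 0 columns were left out.

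Genes named were the 12 highest and 12 lowest by the bound of the fold nearest to 1 against all other and against other low-cycle cells, the 8 in each direction against basal cycling cells, and up to 4 per list by absolute log2 fold against other low-cycle cells. The rule left out the 18 genes that chose the cells, mitochondrial, ribosomal and provisional genes, and genes with over 20% of a set's UMIs in 1 cell. Other genes, among them Lama3, Cd151, Klf4, Fos, Id2, Dll1 and Ly6d, are named because a count they belong to is small, a choice made once their values were known, and some members of such counts are not reported here. The cells, lists and rule were chosen with earlier results of these data known. The 18 alternatives planned covered scaling, filters, thinning, the marker sum and the size of the set, and 1, leaving out a single cell, was added after seeing the data.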

Additional observations from a re-analysis of the deposited data

How the results depend on the processing

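Of 124 folds of named genes, 5 of 2340 values under the alternatives were reversed. A change of sign was counted as reversed only where the main fold was past 1.5-fold, so changes of smaller folds are not in this number. Reversed were Id3 against other low-cycle cells, at a log2 fold of -0.071 in the top 40 cells and -0.071 with no cycle limit, Tmem176b, at -1.49 with no keratin call, and Hist1h2ae (0.34) and Hist1h2ap (0.070) against all other cells with no cycle limit. Counts of genes past 1.5-fold moved more. Those higher than in other low-cycle cells (288) were 182 with TMM scaling, 3384 with no filter on low genes, 475 after thinning and 570 with the top 160 cells. Those lower (457) were 3261 with no filter. Against all other cells the higher (69) were 2017 with no filter, 171 after thinning and 30 with the top 160 cells, and the lower (479) were 5110 with no filter and 244 with no cycle limit. Against basal cycling cells the higher (129) were 2259 with no filter, 297 after thinning, 215 where cells were chosen on one part of the UMIs and read in the other, and 220 with the top 40 cells, and the lower (537) were 3817 with no filter and 810 after thinning. Removing the filter adds genes of few counts, and thinning leaves fewer counts per gene. The cause of the other moves was not tested.

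The choice kept 56 of the 80 cells without Krt15, 64 with the mean of marker ranks, 41 with no cycle limit and 72 after thinning. No paired analysis was possible because each tissue is 1 sample, and for the same reason no replicate could be left out. The mice behind the sample cannot be told apart, so the intervals do not hold the spread between animals. At a median of 33221 UMIs per cell, genes under 20 CPM could not be compared.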

Other observations

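Of the stomach-tagged cells, 86 passed the UMI and mitochondrial limits, and 0 of them were squamous by the keratin share.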
